A study of Homo sapiens with 3 samples.

Results

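The genes described here are 45 genes of chromosome duplication, from the proteins that mark replication origins to those that rebuild chromatin behind the fork. They were chosen by name, with earlier results of these data known, so their counts beside all genes describe these arrays and test nothing. The platform annotation assigned 79 probe sets to them out of 54675 on each array. All 45 were measured, out of 19775 named genes. They fall by role into 7 subgroups, namely origin recognition and licensing (9 genes), origin firing and helicase partners (5), polymerases and primase (10), the sliding clamp and its loader (6), single-strand binding and Okazaki fragment processing (5), fork protection with a PCNA-linked ubiquitin ligase (4), and chromatin assembly with maintenance of DNA methylation (6).

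The arrays came from NCI-H1299, an established human non-small cell lung carcinoma line. The 3 arrays hold 1 mock culture, 1 miR-34a transfectant and 1 ghR-34a transfectant, the last after an RNA known here by name alone. Transfection used a lipid reagent with 25 nM of either RNA and lasted 48 hours, the labels do not say what the mock culture was given, and no cells given a control RNA were analysed here. With 1 culture per group the values below carry no error and no test, compare these arrays by size, and are limited in precision by the number of arrays. The study asked which mRNAs regulated by miR-34a are degraded and which are blocked in translation.

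Before each division a cell loads the replicative helicase onto origins that the origin recognition complex marks, with CDC6 and CDT1 as loaders and geminin (GMNN) as the inhibitor of CDT1. In S phase kinases and firing factors start the helicase, primase and the replicative polymerases copy both strands, a ring-shaped clamp opened by its loader holds the polymerases on DNA, and nucleosomes and DNA methylation are restored behind the fork. Many of these genes are transcribed under E2F, the transcription factor family held back by the RB protein, and miR-34a is known to repress cyclins, cyclin-dependent kinases and E2F members.

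The mature miR-34a strand is shown because its seed, bases 2 to 8, is what pairs with target mRNAs. The sequence is the RefSeq entry of the 5p arm, at chr1:9151735-9151756 on the minus strand of GRCh38.p14, with the seed in capitals. The labels do not state the sequence of either transfected RNA.
hsa-miR-34a-5p: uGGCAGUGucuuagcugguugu

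Replication genes were lower in both transfected cultures than in mock cells, by more in the miR-34a culture. The DNA ligase gene LIG1 and the chromatin remodeller gene HELLS had the lowest values with miR-34a, each just past 2-fold; LIG1 was short of it with a pseudocount of 100 (-0.91) and HELLS with averaged probe sets (-0.80). In the probe sets used, the licensing inhibitor GMNN and LIG1 were lowest with ghR-34a, both short of 2-fold. A second probe set of CDT1 was lower, at -1.01 with ghR-34a. Some genes stood near or above mock in the probe sets used, mainly origin recognition subunits and the single-strand binding protein RPA1. All differences are log2 values of signal plus 32, which understates changes at low signal, and the deposited signals are in arbitrary units.

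For miR-34a against mock, 43 of the 45 genes (95.6%) were below mock, where 44.8% of the 11907 genes above the signal filter were. A difference of at least 1.5-fold lower was seen in 17 (37.8%), against 5.31% of all genes, and of at least 2-fold lower in 2, against 1.13%. None was 1.5-fold higher, against 6.65% of all genes. The median difference was -0.50 (quartiles -0.68 and -0.29), and that of all genes was 0.038. The filter removed none of the 45, since the lowest mean signal among them was 375 and the filter lay at 68.8.

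For ghR-34a against mock, 41 of 45 (91.1%) were below mock, against 48.2% of all genes, and 6 (13.3%) were at least 1.5-fold lower, against 4.06%. In the probe sets used none reached 2-fold lower, against 0.563% of all genes, and none was 1.5-fold higher, against 3.19%. The median was -0.26 (quartiles -0.44 and -0.15), and that of all genes was 0.0096. Both comparisons use the same mock array, so their likeness is no independent evidence. Between the transfectants, 40 of 45 genes were higher with ghR-34a than with miR-34a, against 44.4% of all genes, with a median difference of 0.20 against -0.031. Only RFC1 and HELLS differed there by 1.5-fold, both higher with ghR-34a, where 2.23% of all genes were.

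**Figure D1:**
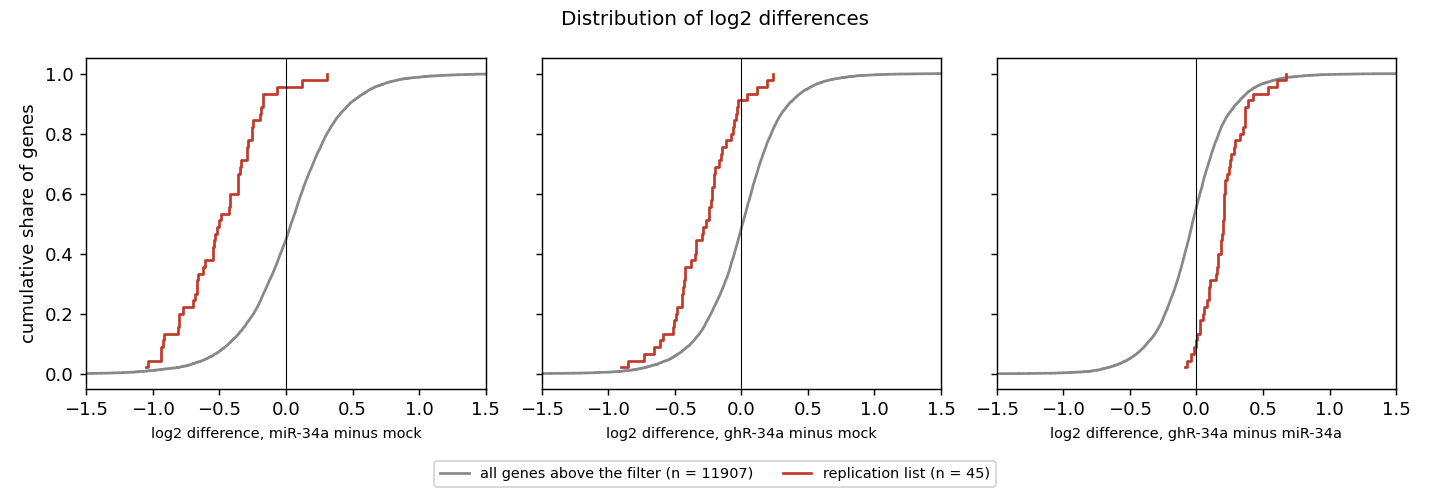
Cumulative share of genes (vertical axis) at or below each log2 difference (horizontal axis) for the 45 replication genes and for all 11907 genes above the filter, in the 3 comparisons. The replication curve lies left of the curve of all genes in both comparisons with mock, with medians of -0.50 and -0.26, and right of it between the transfectants, with a median of 0.20.

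These are total RNA levels of whole cultures, in which fewer cells in S phase and less of each RNA per cell cannot be told apart. Over 42 probe sets of spike-in controls, log2 differences between the miR-34a and mock arrays had an SD of 0.13, and those between ghR-34a and mock of 0.16. Of the proliferation markers, MKI67 differed from mock by -0.31 with miR-34a and 0.031 with ghR-34a, and the S and G2 phase gene TOP2A by -0.40 and -0.35; their part in the results was not tested. The carcinoma markers KRT8, KRT18 and VIM were well above the filter on every array, while KRT19 (3.29 to 8.75) and EPCAM (18.1 to 32.5) were below it. Signals of the 3 leukocyte markers measured summed to between 86.0 and 147, those of the 3 endothelial markers to between 166 and 196, of the 3 fibroblast markers to between 406 and 411, and of the 3 markers of differentiated lung to between 339 and 422. The number of these markers above the filter was 1, 1, 2 and 2, and their part in the results was not tested.

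Promoters of LIG1, HELLS and DTL, which lay far below mock with miR-34a and hold an E2F-type motif, are shown as examples of a sequence that several members share; they were chosen after both were seen. Each is the 150 bases before the first transcription start listed for the gene by RefSeq (GRCh38.p14), 5′ to 3′ on the gene's strand, with matches to the motifs in capitals. LIG1 is at chr19:48170345-48170494 on the minus strand, HELLS at chr10:94545638-94545787 on the plus strand and DTL at chr1:212035598-212035747 on the plus strand.
LIG1: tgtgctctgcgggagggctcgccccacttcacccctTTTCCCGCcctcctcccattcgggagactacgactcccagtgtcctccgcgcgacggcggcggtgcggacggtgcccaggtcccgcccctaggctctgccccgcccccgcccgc
HELLS: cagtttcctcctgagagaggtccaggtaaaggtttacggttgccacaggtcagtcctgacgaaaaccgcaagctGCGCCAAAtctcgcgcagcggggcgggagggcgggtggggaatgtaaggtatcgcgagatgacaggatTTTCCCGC
DTL: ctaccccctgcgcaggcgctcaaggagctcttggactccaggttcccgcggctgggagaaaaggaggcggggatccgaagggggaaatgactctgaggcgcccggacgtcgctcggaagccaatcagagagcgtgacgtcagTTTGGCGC

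The motifs searched were TTTCCCGC, TTTGGCGC, TTTCGCGC and TTTGCCGC on both strands, over 250 bases before to 50 after the first listed start. The LIG1 window holds TTTCCCGC beginning 114 bases before the start, and DTL has TTTGGCGC directly before it. HELLS was the only member with 2 matches. A promoter entry was found for 42 of the 45 genes, and 16 of these (38.1%) held at least 1 match, against 3.33% of all 27305 promoters and 5.49% of the 9753 promoters of genes above the filter. Of the other replication genes described below, 9 of 34 promoters (26.5%) held a match, so the motifs are not particular to the 45 genes. By subgroup, matches were found in 3 of 9 promoters of origin recognition and licensing, 1 of 5 of origin firing, 4 of 9 of polymerases and primase, 2 of 6 of clamp and loader, 1 of 3 of single-strand binding and Okazaki processing, 2 of 4 of fork protection and 3 of 6 of chromatin assembly. The 16 members with a match had a median difference from mock of -0.59 with miR-34a and -0.38 with ghR-34a, and the 26 without had -0.49 and -0.22, over ranges that overlap almost fully. Over all starts listed for a gene, 19 of 42 members (45.2%) and 3.99% of all genes held a match. A match describes these letters and does not show binding.

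**Figure D2:**
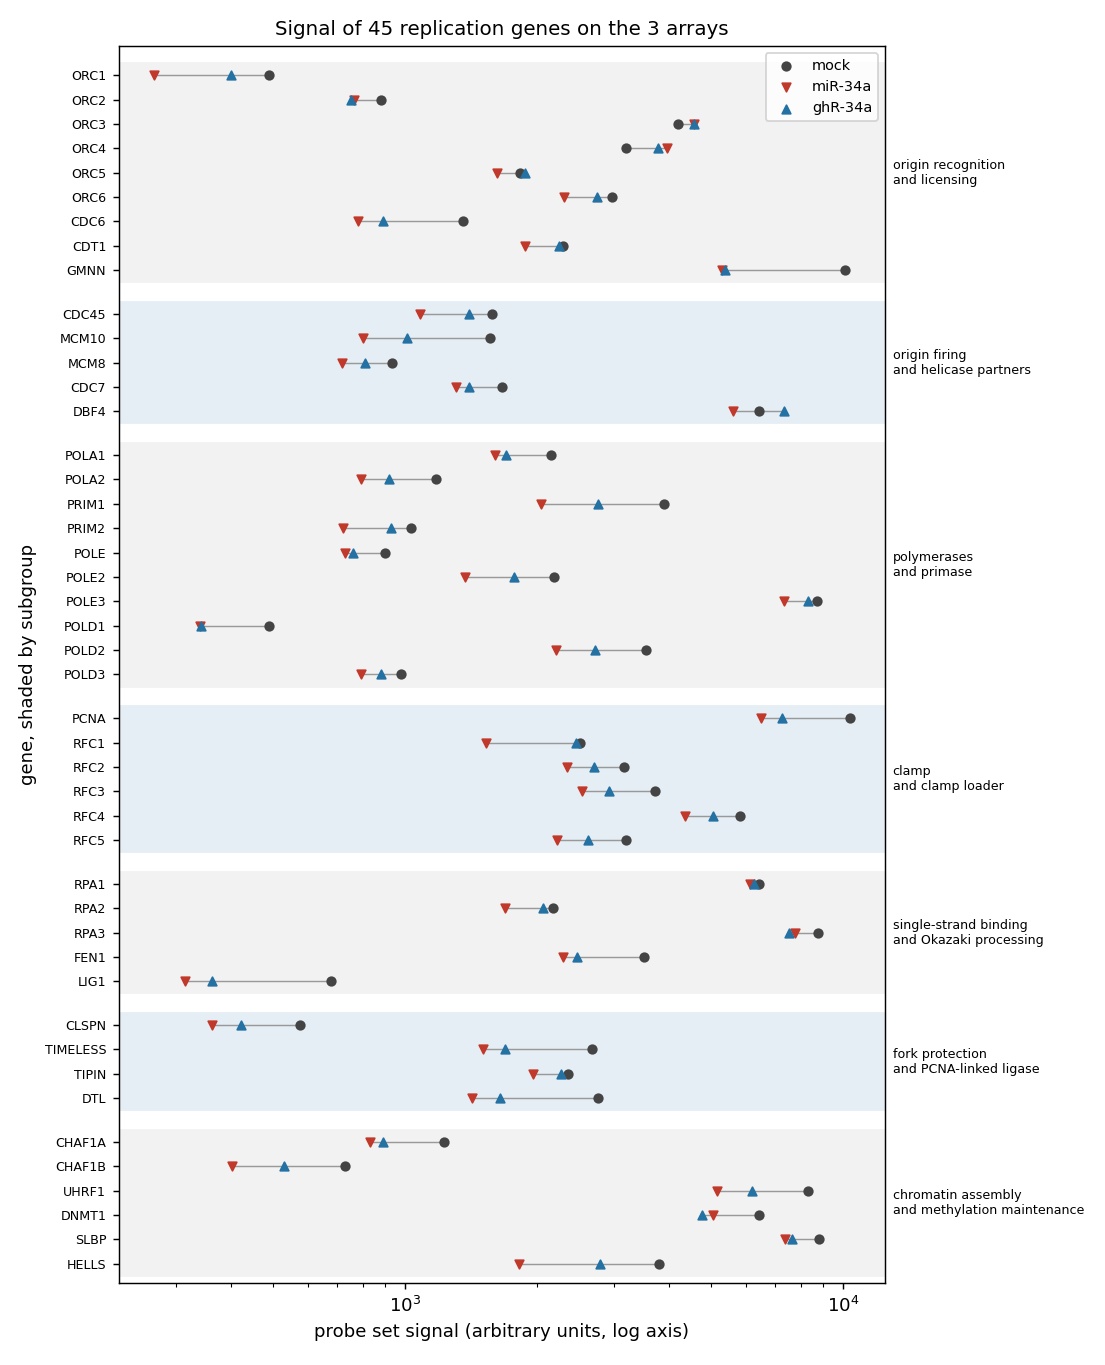
Signal of the probe set used for each of the 45 genes (horizontal log axis, arbitrary units) in the mock, miR-34a and ghR-34a arrays, with genes on the vertical axis grouped by role. The mock point lies to the right for most genes; ORC3 and ORC4 are lowest in mock, and ORC5 and DBF4 are highest with ghR-34a. Positions of different genes on the axis cannot be compared, because probe sets differ in sensitivity.

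Among genes of origin recognition and licensing, GMNN, CDC6 and ORC1 were well below mock. In the probe sets used, ORC2 to ORC5 lay nearer to mock or above it. GMNN had a signal of 10093 in mock, 5295 with miR-34a and 5381 with ghR-34a, which are differences of -0.93 and -0.90, so both transfected cultures were at nearly the same level. CDC6, which loads the helicase with CDT1, was at 1356, 779.5 and 891 (-0.77 and -0.59), the latter on the edge of 1.5-fold and short of it after median centring (-0.57). ORC1, the subunit whose level cycles with the cell cycle, was at 489, 267 and 402 (-0.80 and -0.26). Its 2 transfectant values thus differed by 0.54, the third largest such difference among the 45 genes.

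Of these core subunits, ORC5 was at 1827 in mock, 1618 with miR-34a and 1879 with ghR-34a (-0.17 and 0.040). ORC2 was at -0.20 and -0.22, ORC3 at 0.12 in each comparison, and ORC4 at 0.31 and 0.24. Another probe set above the filter gave -0.32 and -0.18 for ORC2, and -0.30 and 0.15 for ORC5. ORC3 and ORC4 were the only 2 of the 45 genes above mock with miR-34a, and the second probe set of ORC4 gave 0.32 and 0.23. ORC6, the subunit least tightly bound to the others, was at -0.36 and -0.11.

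CDT1 had probe sets that disagreed in size. The one with the higher signal, of a kind that can cross-react (_x_at), was at 2293 in mock, 1877 with miR-34a and 2243 with ghR-34a, differences of -0.28 and -0.031. The other, an _s_at probe set, was at 1293, 648 and 626, differences of -0.96 and -1.01. Both kinds were left out in an alternative setting described below, which left CDT1 without a value. The second reading would place CDT1 among the lowest genes of the list with miR-34a. With ghR-34a it would be the lowest and the only one past 2-fold. The choice between the readings was not settled by these files. Over the whole subgroup the median was -0.28 with miR-34a (3 of 9 at least 1.5-fold lower) and -0.11 with ghR-34a (2 of 9). With averaged probe sets these medians were -0.36 and -0.20.

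In the group of origin firing and helicase partners, MCM10, which is needed to activate the loaded helicase, was lowest. It was at 1566 in mock, 801 with miR-34a and 1013 with ghR-34a (-0.94 and -0.61), and its 3 probe sets ranged from -0.94 to -0.77 and from -0.61 to -0.55. CDC45, a component of the active helicase, was at 1580.1, 1081 and 1402 (-0.53 and -0.17). The kinase gene CDC7 was at 1665, 1311 and 1399 (-0.34 and -0.25). Its activating subunit DBF4 was at 6414, 5615 and 7338 (-0.19 and 0.19), so the kinase and its activator differed in sign with ghR-34a. MCM8, an MCM relative known for its part in recombination repair, was at -0.36 and -0.20. The subgroup medians were -0.36 and -0.20, with 1 of 5 genes at least 1.5-fold lower in each comparison, MCM10, which with ghR-34a was just short of it with a pseudocount of 100 (-0.58).

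All 10 genes of polymerases and primase were below mock in each comparison, with medians of -0.49 and -0.32. The catalytic primase subunit gene PRIM1 was lowest, at 3893 in mock, 2049 with miR-34a and 2756 with ghR-34a (-0.92 and -0.49). Its partner PRIM2 was at -0.50 and -0.15, and the polymerase alpha genes POLA1 and POLA2 were at -0.42 and -0.34 and at -0.55 and -0.35. The 4 genes of the complex that lays down primers therefore spanned -0.92 to -0.42 with miR-34a.

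Polymerase delta, the lagging-strand enzyme, was lower in its catalytic subunit gene POLD1, at 490.2, 341 and 342 (-0.49 and -0.48). The accessory subunit gene POLD2 was at 3544, 2216 and 2718 (-0.67 and -0.38). POLD3 was at 979, 794 and 882 (-0.29 and -0.15), and its second probe set, at 89.8, 55.7 and 96.3, gave -0.47 and 0.075. For POLD1 the transfectants were alike, within 0.0028, while POLD2 was 0.29 higher with ghR-34a.

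Of the genes for polymerase epsilon, which copies the leading strand, POLE2 was at -0.66 and -0.30 and the catalytic subunit gene POLE at -0.30 and -0.24. POLE3, a histone-fold subunit, was at 8703, 7313 and 8339 (-0.25 and -0.061), the nearest to mock of this subgroup. With miR-34a, 3 of the 10 genes (PRIM1, POLD2, POLE2) were at least 1.5-fold lower, and with ghR-34a 0 of 10 were.

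In the probe sets used, the clamp PCNA and the clamp loader genes RFC1 to RFC5 formed the most even subgroup with miR-34a. They ran from -0.70 to -0.42, with a median of -0.53. PCNA was at 10383 in mock, 6507 with miR-34a and 7259 with ghR-34a (-0.67 and -0.51). Of the small loader subunits, RFC3 was at 3719, 2529.7 and 2925 (-0.55 and -0.34), and RFC5 at 3198, 2225 and 2614 (-0.52 and -0.29). The other probe sets of RFC5 gave -0.17 and -0.42 with miR-34a, and -0.11 and -0.40 with ghR-34a. RFC4 was at 5824, 4349.6 and 5053 (-0.42 and -0.20), and RFC2 at -0.43 and -0.23. For each of these 4 loader genes the ghR-34a signal lay between those of mock and miR-34a.

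RFC1, the large loader subunit, was close to its mock level with ghR-34a. It was at 2503 in mock, 1531 with miR-34a and 2459 with ghR-34a, differences of -0.70 and -0.026 (0.068 for ghR-34a with all its probe sets averaged). The second probe set above the filter gave -0.89 and -0.12. Its difference between the transfectants, 0.67 (0.78 in the second probe set), was the largest of the 45 genes. These probe sets are of the _x_at and _s_at kinds. The remaining probe set of RFC1, which entered the average, was below the filter (0.35 with ghR-34a). The subgroup median with ghR-34a was -0.26, with 0 of 6 genes at least 1.5-fold lower, and with miR-34a 2 of 6 were, PCNA and RFC1.

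Single-strand binding and Okazaki fragment processing split by function. LIG1, which seals the nicks between fragments, was at 678 in mock, 314 with miR-34a and 362 with ghR-34a, that is 2.05-fold and 1.80-fold lower (-1.04 and -0.85), and about 1% of all genes had a lower value (0.991% and 1.11%). FEN1, the nuclease that trims the flaps before ligation, was at 3517, 2294 and 2469 (-0.61 and -0.51), and its second probe set gave -0.82 and -0.57. The 3 subunits of replication protein A, which coats single-stranded DNA, lay nearer to mock.

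RPA1 was at 6414, 6123 and 6247 (-0.067 and -0.038), the smallest mean difference from mock of the list. Its other probe sets gave 0.021 and 0.24 with miR-34a and 0.015 and -0.069 with ghR-34a, so it had no settled sign. RPA2 was at 2179.7, 1694 and 2064 (-0.36 and -0.078), and RPA3 at -0.18 and -0.22. The subgroup medians were -0.36 and -0.22, values that describe neither the ligation genes nor RPA1 well.

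Fork protection genes and DTL had medians of -0.72 with miR-34a and -0.54 with ghR-34a, from only 4 genes, the lowest of the 7 subgroups in the probe sets used. Those medians were -0.60 and -0.37 with averaged probe sets and -0.35 and -0.29 without _s_at and _x_at probe sets, and chromatin assembly was lower in both of these settings. DTL, the substrate receptor of the ligase that removes CDT1 at PCNA, was at 2759 in mock, 1426 with miR-34a and 1649 with ghR-34a (-0.94 and -0.73). TIMELESS was at 2672, 1506 and 1689 (-0.81 and -0.65), with -0.35 and -0.29 in a second, dimmer probe set, so that its place past 1.5-fold rests on the brighter one. CLSPN, the adaptor for activation of the checkpoint kinase CHK1, was at 577, 362 and 423 (-0.63 and -0.42), and its 3 probe sets above the filter all lay between -0.97 and -0.63 with miR-34a. Its remaining probe set, below the filter, gave -0.18 and 0.52 and entered the averaged values.

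TIPIN, the partner protein of TIMELESS, was at 2354, 1963 and 2266 (-0.26 and -0.054), nearer to mock than the brighter TIMELESS probe set and, with miR-34a, close to the dimmer one. In this subgroup 3 of 4 genes were at least 1.5-fold lower with miR-34a and 2 of 4 with ghR-34a, DTL and TIMELESS, and CLSPN was short of it with a pseudocount of 100 (-0.55).

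In the subgroup of chromatin assembly and methylation maintenance all 6 genes were below mock, with medians of -0.61 and -0.43. HELLS, a remodeller needed for DNA methylation, was at 3799.9 in mock, 1819 with miR-34a and 2785 with ghR-34a, 2.07-fold and 1.36-fold lower (-1.05 and -0.44). Its 4 probe sets above the filter ranged from -1.11 to -0.62 with miR-34a and from -0.83 to -0.32 with ghR-34a. The difference between the transfectants was 0.61 in the probe set used and 0.23 in the probe set where it was smallest, so its size is uncertain.

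CHAF1B, a subunit of the histone chaperone CAF-1, was at 728, 404 and 529 (-0.80 and -0.44), and the large subunit gene CHAF1A at -0.54 and -0.45. UHRF1, which recognises half-methylated DNA behind the fork, was at 8298, 5157 and 6196 (-0.68 and -0.42). DNMT1, the methyltransferase it recruits, was at -0.34 and -0.43. SLBP, which binds the stem-loop of replication histone mRNAs, was at 8823, 7388 and 7642 (-0.26 and -0.21), nearest to mock of the 6. With ghR-34a, 5 of these genes lay between -0.45 and -0.42, all short of 1.5-fold.

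**Figure D3:**
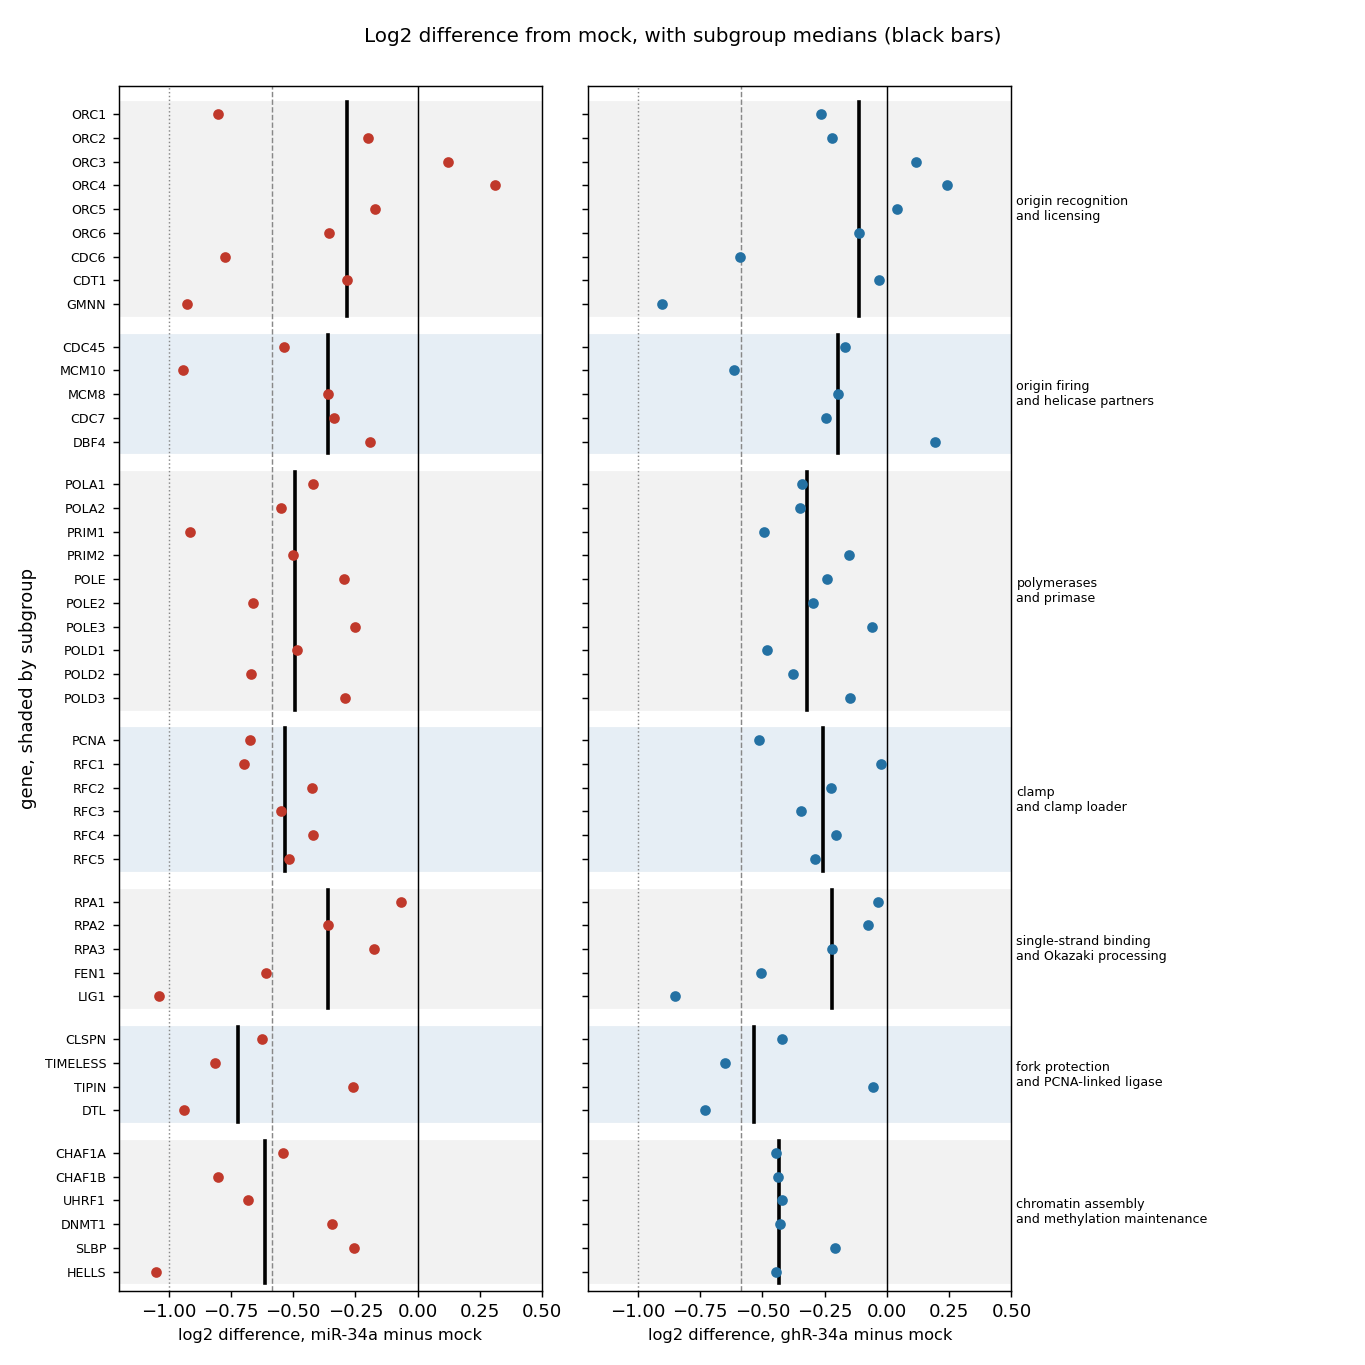
Log2 difference from mock (horizontal axes) of each of the 45 genes (points) for miR-34a on the left and ghR-34a on the right, with subgroup medians as black bars and dashed and dotted lines at 1.5-fold and 2-fold lower. In the probe sets used, fork protection had the lowest medians (-0.72 and -0.54) and origin recognition and licensing the highest (-0.28 and -0.11), ranks that other choices of probe set changed. In origin recognition and licensing single genes ran from -0.93 to 0.31 with miR-34a.

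Subgroup medians thus differed less from each other than the genes within most subgroups. With miR-34a the 7 medians ran from -0.72 to -0.28, and the genes of origin recognition and licensing alone from -0.93 to 0.31. Ordered from lowest, the medians with miR-34a were those of fork protection (-0.72), chromatin assembly (-0.61), clamp and loader (-0.53), polymerases and primase (-0.49), origin firing (-0.36), single-strand binding and Okazaki processing (-0.36), and origin recognition and licensing (-0.28). With ghR-34a fork protection (-0.54) and chromatin assembly (-0.43) again came first, followed by polymerases and primase (-0.32), clamp and loader (-0.26), single-strand binding and Okazaki processing (-0.22), origin firing (-0.20) and origin recognition and licensing (-0.11). Neighbours in these orders mostly lay closer than the spike-in SD, and no spread between cultures was available to rank them. That SD is the spread of single control probe sets and does not measure the error of a median. Both ends of the orders depended on the choice of probe set. With averaged probe sets chromatin assembly was lowest (-0.63 and -0.42), and origin firing was nearest to mock with miR-34a (-0.34). Those averages took in probe sets below the filter. In fork protection they included a CLSPN probe set at -0.18 with miR-34a and 0.52 with ghR-34a. Without _s_at and _x_at probe sets chromatin assembly was again lowest (-0.80 and -0.44), and single-strand binding and Okazaki processing was nearest to mock with ghR-34a (-0.15).

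A second look at the same RNA came from the other probe sets. Of the 45 genes, 25 had 1 probe set and 20 had several, at most 5. There were 27 further probe sets above the filter, and their sign was that of the probe set used in 25 with miR-34a and in 25 with ghR-34a. The exceptions were 2 probe sets of RPA1 with miR-34a, and 1 each of RPA1 and POLD3 with ghR-34a. Of all 72 probe sets of the 45 genes above the filter, 67 were below mock with miR-34a and 64 with ghR-34a. The share over all probe sets was not computed, and by gene it was 44.8% and 48.2%. Averaging all probe sets of a gene, dim ones included, changed the difference from mock with miR-34a for several genes. It became -0.62 for CDT1, -0.18 for MCM8, -0.26 for POLA2, -0.28 for RFC3 and -0.37 for RFC5. With ghR-34a it became -0.52 for CDT1, 0.15 for ORC5, -0.036 for POLD3 and -0.28 for CLSPN, and RFC2 was at -0.38 without its _s_at probe set. These probe sets share an array and a culture, so they check the hybridisation and not the effect of the transfection.

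**Figure D4:**
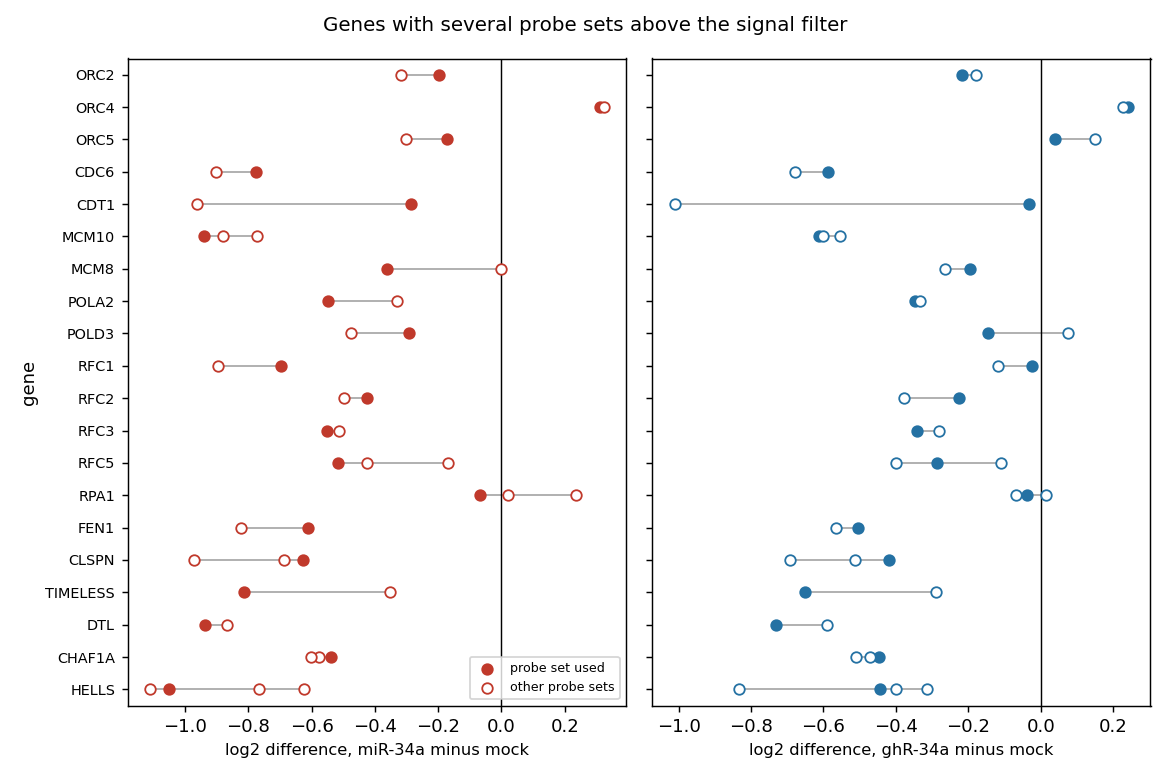
Log2 difference from mock (horizontal axes) for every probe set above the filter of the 20 genes with more than 1, with the probe set used as a filled point and the others as open points. CDT1 has the widest span with ghR-34a, from -1.01 to -0.031, and ORC4 is above mock in both of its probe sets.

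Other replication genes had similar medians, and their lowest values were in MCM and GINS subunits. Of a list of 43, which holds the MCM and GINS helicase subunits, histone chaperones, topoisomerases and accessory factors, 41 were measured, all with signals past the filter. In each comparison 36 lay below mock, while 16 were at least 1.5-fold lower with miR-34a and 6 with ghR-34a, and 0 were 1.5-fold higher in either. At least 2-fold lower were 4 with miR-34a and 2 with ghR-34a, all MCM or GINS genes, against 2 and 0 of the 45 genes. The shares of all genes were 1.13% and 0.563%. MCM2 to MCM7 and GINS1 to GINS4 ran from -1.23 to -0.53 with miR-34a and from -1.42 to -0.22 with ghR-34a. The medians were -0.48 and -0.25, against -0.50 and -0.26 for the 45 genes. GINS1 (3279 in mock, 1384 with miR-34a and 1203 with ghR-34a), GINS3 (883, 369 and 426) and MCM5 (2810.5, 1398 and 1324) had the largest mean absolute differences over both comparisons, at -1.23 and -1.42, -1.19 and -0.999, and -0.99 and -1.07. In each comparison 5 of the 41 lay above mock. POLD4, the smallest polymerase delta subunit, named here after its values were seen, was highest with miR-34a. It was at 656 in mock, 980.04 with miR-34a and 690 with ghR-34a (0.56 and 0.069). TOP1, also named after its values were seen, was highest with ghR-34a (0.31 with miR-34a and 0.20 with ghR-34a).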

How the data were processed

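Total RNA of 3 cultures was measured on 1-colour arrays, 1 per condition, with 250 ng of RNA labelled for each, per the labels' protocols. The authors deposited linear probe set intensity made with Affymetrix Expression Console, per the submitters' processing notes; its version is not given in the sources used here. Since the deposited values share a 2% trimmed mean of 500.1, each array was scaled upstream, and no detection calls came with them.

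A value of 32 was added to each signal before log2, without rescaling arrays. Probe sets with a single gene symbol (41091, without the 62 controls) were kept, and the one with the highest mean log2 value stood for its gene. Genes whose mean reached the midpoint of all probe sets, equal to 68.8 in signal, passed the filter (11907). Genes were counted by size, at log2 differences of 0.585 (1.5-fold) and 1 (2-fold). No test between conditions was possible. The computation was tested on simulated data with known folds.

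The members, lists and subgroups were chosen with earlier results of these data known. Signals on all arrays are given for the 3 genes of each subgroup with the largest mean absolute difference from mock and the 1 with the smallest, for genes at 2-fold in any comparison, for the 5 with the largest difference between transfectants, and for those whose probe sets differed in sign (30 in all). For CDT1 they are given because its probe sets disagreed in size. Of the other replication list the 3 with the largest mean absolute differences were to be named. Promoter and miRNA sequences are from RefSeq, GRCh38.p14. Software was Python 3.11.15, pandas 2.3.3, numpy 2.4.6, scipy 1.17.1 and matplotlib 3.10.9.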

Additional observations from a re-analysis of the deposited data

How the results depend on the processing

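Alternatives were pseudocounts of 1 and 100, no filter, a stricter filter (signal 428), quantile normalization, median centring, averaging a gene's probe sets, and leaving out probe sets whose identifiers end in _s_at or _x_at. With no replicates, a median was taken as moved when it shifted by more than the spike-in SD, and a count when it changed by over 1.5 times. Both are limits of size and not of error. The median of the 45 genes stayed between -0.56 and -0.46 for miR-34a and between -0.30 and -0.24 for ghR-34a, and was 0.19 to 0.28 between the transfectants. With miR-34a, 2 genes were reported as at least 2-fold lower, and 1 was with a pseudocount of 100, with the stricter filter and with averaged probe sets. Without _s_at and _x_at probe sets 31 genes were left. There 2 of the 31 were at least 1.5-fold lower with ghR-34a, where 4.09% of 9277 genes were. In the main setting it was 6 of 45, against 4.06%. The medians of origin firing were -0.55 and -0.40, from 2 genes, and those of fork protection -0.35 and -0.29, from 3 genes, and that of chromatin assembly was -0.80 with miR-34a, from 3 genes. With averaged probe sets the fork protection median for ghR-34a was -0.37. The other 174 values of medians and counts stayed within these limits. Of single genes, RPA1 changed sign with averaged probe sets for miR-34a (0.063), and RFC1 for ghR-34a (0.068). The RFC1 average took in a probe set below the filter, at 7.63 in mock, 3.01 with miR-34a and 18.5 with ghR-34a (0.35 for ghR-34a). That of RPA1 took in its other probe sets, at 0.021 and 0.24 with miR-34a. The cause of the other shifts was not tested. No paired analysis was possible because each condition has 1 array. Signal limits the probe sets near 68.8, and the 45 genes all lay well above it in the probe set used.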
